A study of Danio rerio with 6 samples.

Results

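Distal tubule of the pronephros, the embryonic kidney of fish, was cut out of zebrafish embryos by laser capture and its RNA sequenced. Of 10022 rows in the resulting count table, 57 had at least 1 count in each of 3 control libraries and 0 counts in each of 3 epcam mutant libraries. Members were chosen by these counts, after the lowest value of each library was subtracted, and the rule left out epcam, apoa4b.1 and rows whose names start with slc, kcn or col. The difference between controls and mutants is therefore a description of how the rows were picked, and no test of it is given as support. The controls were epcam+/+ and the mutants epcamhi2151/hi2151, both groups also carried Tg(wt1b:GFP) and Tg(cdh17:GFP), and all were taken at 48 hours post fertilization. How many embryos went into a library is not stated in the sources used, so the spread between libraries, and any p-value from it, may be partly technical.

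Tubule epithelium of the pronephros takes up solutes from the filtrate and is rich in mitochondria. The embryonic liver, gut and yolk syncytial layer make plasma proteins and enzymes of amino acid and sugar metabolism, and several of these enzymes also work in kidney cells. In such a bulk sample, fewer cells of a type and less RNA per cell cannot be told apart.

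Controls 1 to 3 held 552334, 746232 and 188022 counts. Mutants 1 to 3 held 172239, 126861 and 250714. Levels below are CPM, the count scaled by the library total. Since all mutant counts of the members are 0, the mutant level is bounded by 3 counts per library, which averages 17.7 CPM over the mutants. The control mean divided by this limit is called the bound, so a bound of 5 means a control mean 5 times the limit. Since the members were chosen by these counts, bounds describe the members and test nothing. Bounds take counts as independent molecules, which amplified copies are not, so the bounds may be too large. The intervals given for shares of rows treat rows as independent. Neither covers the spread between libraries. The targeted gene epcam had control counts of 10, 15 and 10 and a count of 0 in each mutant. The epithelial cadherin cdh17, which marks the pronephric tubule, had control counts of 1406, 1515 and 22 and mutant counts of 300, 25 and 109. It was present in every library and lowest in control 3, at 117 CPM. Library names place controls 1 and 2 in 1 project code and control 3 with all mutants in another.

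The pattern was rarer among rows with more counts. With the left-out names it covered 59 rows, or 0.589% of the table, and the 57 members are 0.569%. The mirror pattern, counts in each mutant and none in any control, covered 227 rows or 2.27%. The controls held 1486588 counts in all and the mutants 549814, but more rows had counts in every mutant (6015) than in every control (4837). The mirror rows were 3.77% of the former and the members 1.18% of the latter. Of the 4837 rows with counts in every control, the share with none in any mutant was 1.82% (95% exact binomial interval 1.23% to 2.58%) for rows with fewer than 50 pooled control counts. It was 1.38% from 50 to 99 counts, 1.03% from 100 to 199, 0.641% from 200 to 499 and 0 of 444 rows from 500 counts up, which allows up to 0.827%. The lowest bin includes rows that passed the authors' filter, given below, only through a mutant. Such rows could not show the pattern, so the share in that bin is partly fixed by the filter. Pooled control counts of the members ran from 20 to 373 with a median of 49.

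**Figure D1:**
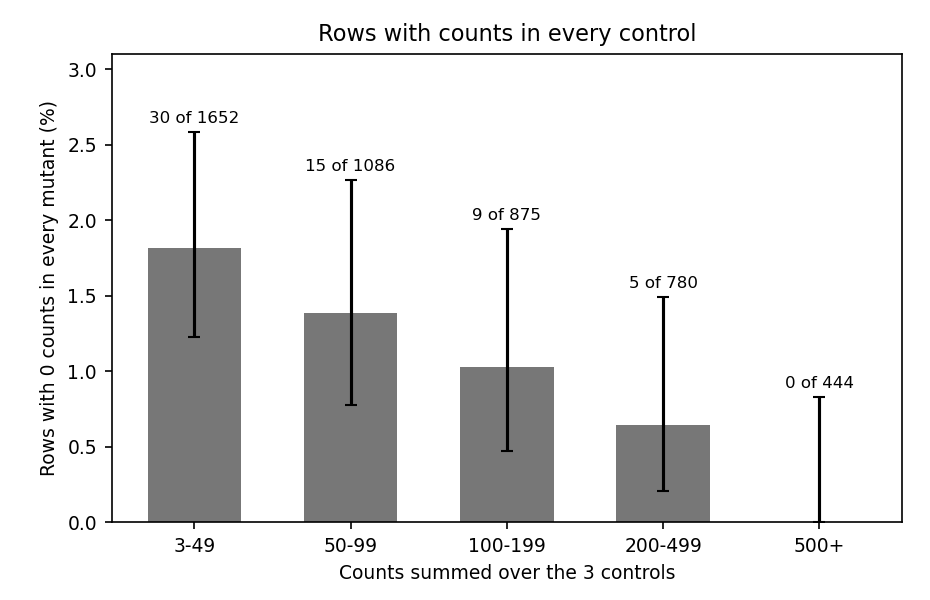
Share of rows with 0 counts in all mutants (vertical axis, percent) by counts summed over the 3 controls (horizontal axis), among the 4837 rows with counts in every control, with the left-out names included. Bars fall from 1.82% to 0, and lines are 95% exact binomial intervals, which treat rows as independent and overlap between neighbouring bars. The first bar includes rows that passed the authors' filter only through a mutant and could not have 0 counts in all mutants.

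Single libraries set the size of the group. Dropping the demand on mutant 3, which detected 9074 rows against 7879 and 7771 in mutants 1 and 2, gave 218 rows. Dropping mutant 1 gave 109 rows, mutant 2 gave 94 and control 3 gave 92, while dropping control 1 or 2 gave 77 or 71. Of the members, 30 had 3 or more counts in every control, 16 had 5 or more and 6 had 10 or more. A single count in at least 1 control admitted 14 members. The authors had filtered the table: every row reaches 15, 19 or 9 counts in controls 1, 2 or 3, or a corresponding limit in a mutant, so each member had to reach such a count in a control. Of the 57, 35 reached it in 1 control, 18 in 2 and 4 in all 3.

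Grouped as secreted and plasma proteins were 5 members. The gene tcn2 (chromosome 5, 26195312 to 26205947, build GRCz10 here and below), which encodes a plasma carrier of vitamin B12, had 212, 19 and 27 counts in controls 1 to 3. That made 384, 25.5 and 144 CPM (184 ± 183, SD, n = 3), with a bound of 10.4. Control 1 held 69.4% of its summed CPM, and without control 1 the bound was 4.78.

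Of that group, 3 members were highest in control 3. The gene apoc2 (chromosome 16, 24069723 to 24076129) encodes an activator of lipoprotein lipase and had 8, 21 and 47 counts, with a bound of 5.52, or 1.21 without control 3. The gene afp4, annotated as a type IV antifreeze protein, had 10, 12 and 106 counts. Its mean was 199 ± 316 CPM, and its bound without control 3 was 0.967. A second row of the same name and identifier on chromosome 16, 45937437 to 45943334, had control counts of 0, 13 and 15 and mutant counts of 7, 0 and 1. The complement regulator rca2.1 had 4, 2 and 18 counts, and a bound of 1.99, or 0.281 without control 3.

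Enzymes of sugars, nucleotides, peptides and ions, apart from mitochondrial and lysosomal ones, made up 10 members, and 7 of them were highest in control 3. The figures label this group Cytosol/ER enzymes, a loose name, since the places of the products were not checked. The gene g6pca.2 (chromosome 12, 6007978 to 6014702) encodes the catalytic subunit of glucose-6-phosphatase, which releases glucose in liver and kidney. It had 3, 60 and 116 counts, or 5.43, 80.4 and 617 CPM, with a bound of 13.3, or 2.43 without control 3. Its relatives g6pcb and g6pc3, looked up like all relatives below after the members were known, had at most 2 counts in any control and up to 18 and 164 in a mutant. The purine synthesis enzyme atic (chromosome 1, 4739585 to 4806325) had 8, 33 and 65 counts, with a bound of 7.63, or 1.66 without control 3.

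In the same group the liver phosphofructokinase pfkla of glycolysis had 6, 19 and 23 counts, and the carnosine peptidase CNDP1 had 2, 15 and 22. The myo-inositol oxygenase miox, made chiefly in the kidney of mammals, had 1, 1 and 27 counts, so 97.9% of its summed CPM lay in control 3. Counts of krtcap2, a subunit of the mammalian oligosaccharyltransferase, were 2, 5 and 24, and those of the selenoprotein sepw2b were 5, 3 and 19. These 5 genes were at or below 25.5 CPM in controls 1 and 2 and at or above 101 CPM in control 3. The adjacent paralogue sepw2a was counted in mutant 2 (5 counts).

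The carbonic anhydrase ca4c was highest in control 2, with 23, 72 and 3 counts. The nudix hydrolase nudt17 had 18, 17 and 2. The ribonucleotide reductase subunit rrm2, on the fixed list for cell division, had 11, 27 and 2 counts at chromosome 19, 48003903 to 48010821. A second row named rrm2 on chromosome 20, with another identifier, had control counts of 12, 27 and 0 and no mutant count, and missed the rule by 1 library. Such near-identical rows can share reads and are uncertain. The partner subunit rrm1 had control counts of 72, 169 and 1 and mutant counts of 8, 7 and 33.

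Mitochondrial enzymes and proteins of mitochondrial translation gave 10 members, and here control 1 was highest for 7, control 2 for 1 and control 3 for 2. The gene dmgdh (chromosome 21, 97366 to 127688) encodes dimethylglycine dehydrogenase of choline breakdown and had 5, 38 and 55 counts. Its level was 117.5 ± 153 CPM and its bound 6.65, or 1.70 without control 3. The next enzyme of that pathway, sardh, missed the rule with control counts of 133, 109 and 50 and mutant counts of 1, 0 and 2. Reads of dmgdh can also come from bhmt on the opposite strand, which overlaps it by 2056 bases and had 178, 239 and 415 control counts and 0, 0 and 6 mutant counts, since the libraries carry no strand.

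The kinase pdk2a (chromosome 12, 28444506 to 28456087), which switches off pyruvate dehydrogenase, had 40, 138 and 7 counts. It lay above the mutant limit in every control, with 72.4, 185 and 37.2 CPM in controls 1 to 3, and its bound was 5.55, or 3.1 without control 2. Of its 5 listed relatives, pdk4 had 163, 16 and 5 control counts and 0, 7 and 6 mutant counts, and pdk3b had counts in the mutants only. The folate enzyme mthfd2 had 50, 38 and 3 counts (bound 2.97, or 1.89 without control 1), while mthfd1b, mthfd1l and mthfd1a of the same family were each counted in at least 2 mutants. The sulfide-oxidising enzyme sqrdl had 47, 10 and 7 counts.

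Fumarate hydratase (fh), an enzyme of the citric acid cycle and on the fixed list for respiration, had 31, 27 and 1 counts. Tafazzin (taz), which remodels the mitochondrial lipid cardiolipin, was even over the controls at 43.5, 34.8 and 21.3 CPM. The remaining 4 serve mitochondrial gene expression and had bounds of at most 1.35. The ribosomal protein mrps10 had 26, 2 and 1 counts, the ribosome assembly factor MALSU1 23, 14 and 2, the RNA-binding protein slirp 2, 11 and 10, and the methionine aminopeptidase metap1d 21, 3 and 1. The mean of metap1d, 15.8 CPM, lies under the mutant limit, so its bound was 0.893. Without control 1 the bound of mrps10 was 0.226 and that of MALSU1 0.832, and without control 3 that of slirp was 0.519. Of 27 rows whose names mark mitochondrial ribosomal proteins, 1 was a member and 17 had no count in control 3.

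Lysosome, autophagy and vesicle traffic genes numbered 11. The lysosomal phospholipase pla2g15 (chromosome 25, 13592660 to 13607426) had 88, 79 and 175 counts, or 159, 106 and 931 CPM. It was the only member with over 50 counts in every control, and its bound was 22.6, or 7.50 without control 3. The endocytic adaptor REPS2 had 78, 94 and 1 counts, so control 3 held 1.95% of its summed CPM, and its bound was 5.14. Its relative reps1 was counted in mutants 1 and 3 (7 and 19 counts).

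The small subunit ap2s1 of the AP-2 clathrin adaptor had 29, 24 and 2 counts in the controls. The partner subunits ap2a1, ap2b1 and ap2m1a, from the vesicle list, were counted in every library, with 18, 36 and 46 mutant counts for ap2a1. The acid ribonuclease rnaset2 was the most even member, with 38.0, 20.1 and 37.2 CPM and a highest level 1.89 times the lowest. The Rab acceptor rabac1 was also present in all controls, at 38.0, 22.8 and 69.1 CPM. The bounds of these 2 genes were 1.80 and 2.45.

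Other traffic genes peaked in 1 or 2 libraries. The secretory carrier protein scamp2l had 35, 19 and 1 counts, the autophagy protein wdr45b 21, 5 and 2, and the secretory granule protein ptprna 22, 1 and 8. The BLOC-1 subunit bloc1s2 had 4, 3 and 24 counts and its partners bloc1s3 and bloc1s4 were both counted in mutants. The Golgi tether subunit cog7 had 1, 25 and 4 counts, whereas cog5, cog2 and cog8 had at most 3 counts in any control and up to 38, 22 and 45 in a mutant, and cog4 had control counts of 54, 8 and 4 and mutant counts of 0, 16 and 1. Members of 1 complex thus fell on both sides of the rule. The gene eva1a, tied to autophagy in mammals, had 2, 77 and 5 counts.

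Membrane, junction, cytoskeleton and calcium signalling genes gave 10 members, 6 of them highest in control 3. The gene s100a10b (chromosome 16, 23482753 to 23484452), whose mammalian counterpart binds annexin A2, had 1, 16 and 102 counts. Its bound was 10.7, or 0.658 without control 3. The calcium-binding protein s100u had 1, 1 and 20 counts, the claudin cldne, a tight junction protein on the fixed keratinocyte list, 5, 3 and 12, and the cation exchanger cax2 3, 7 and 16. These 4 were at or below 21.4 CPM in controls 1 and 2. Of 6 other claudins looked up afterwards, all had counts in at least 1 mutant.

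The immunoglobulin-domain protein vstm4a (chromosome 13, 30820705 to 30837334) was spread more evenly, with 16, 85 and 30 counts, or 29.0, 114 and 160 CPM. Its bound was 5.70, or 4.04 without control 3. The calmodulin-dependent kinases camk2d1 and camk1b had 5, 23 and 7 and 29, 2 and 7 counts. The progestin receptor family member paqr6 had 44, 3 and 6 counts, the actin regulator eps8l1 1, 47 and 1, and ccdc23, named SVBP in the name table and a partner of tubulin-trimming vasohibins in mammals, 17, 18 and 1.

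The 2 nuclear members were setd8a, a histone H4 methyltransferase, with 4, 14 and 32 counts, and the nucleolar protein NOP14, with 13, 23 and 2. No role was assigned to 9 members. The highest of all 57 was among them: si:ch211-195b11.3 (chromosome 14, 38445944 to 38451570) had 3, 3 and 367 counts, or 5.43, 4.02 and 1952 CPM, and its bound was 37.0, or 0.267 without control 3. The row si:dkey-16l2.17 was steadier, with 65, 34 and 10 counts (bound 4.08, or 2.79 without control 1), as was GRAMD3 with 26, 55 and 5. The row of identifier ENSDARG00000076651, for which the name table has no entry, had 92, 5 and 8 counts, si:rp71-62i8.1 4, 65 and 11, zgc:92360 16, 2 and 22, and si:dkey-186o21.1, named sec14l7 in the name table, 28, 14 and 3. The PX-domain gene pxdc1b and rogdi had 1, 29 and 14 and 5, 1 and 21.

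**Figure D2:**
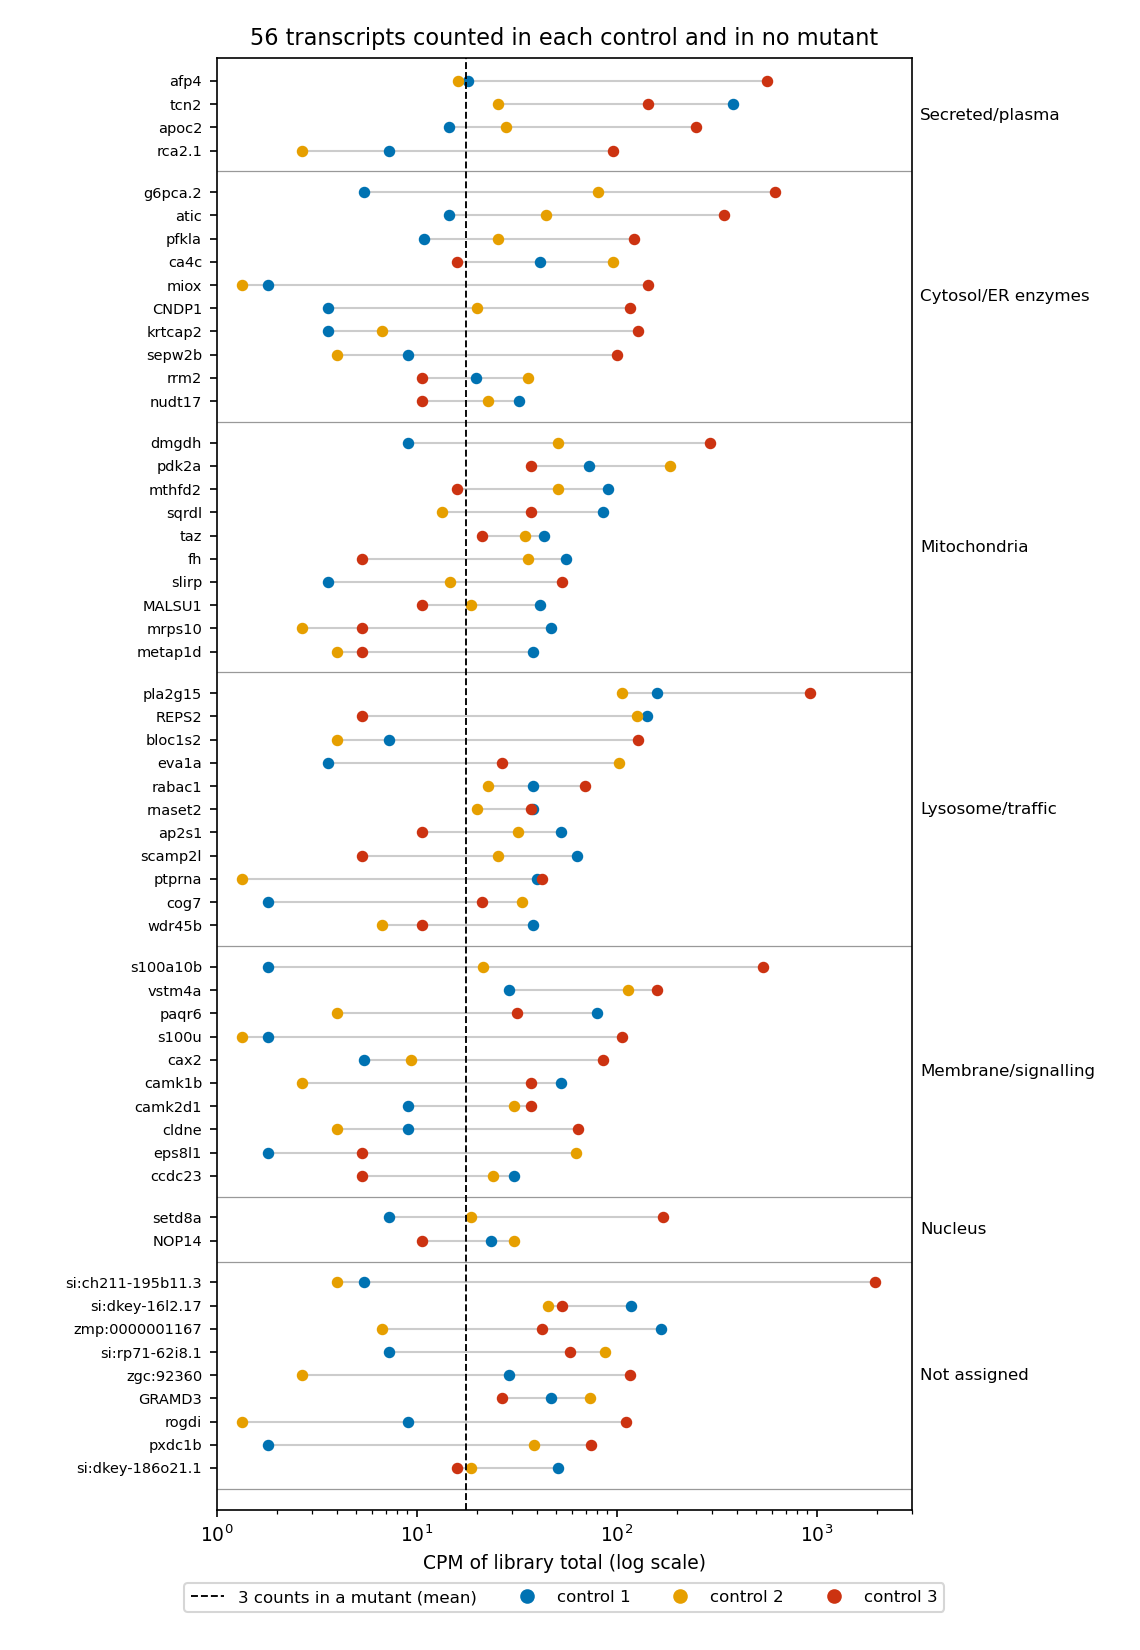
Level of 56 members in controls 1 to 3 (points, CPM of library total, log scale), grouped by role and ordered by mean level within a role; all mutant values are 0 and are not drawn, and the dashed line marks 3 counts averaged over the mutants, 17.7 CPM. The point for control 3 lies far to the right for si:ch211-195b11.3, s100a10b, afp4 and miox, while rnaset2, taz and si:dkey-16l2.17 have 3 points close together.

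The spread over the controls was wide. Members summed to 1295, 1772 and 1534 counts in controls 1 to 3, or 2345, 2375 and 8159 CPM, and without si:ch211-195b11.3 control 3 still stood at 6207 CPM. Control 3 was highest for 27 members (47.4%), control 1 for 20 (35.1%) and control 2 for 10 (17.5%). Of the other 4780 rows with counts in all controls, 36.2% were highest in control 3, 31.9% in control 1 and 31.9% in control 2. At least 75% of the summed CPM lay in control 3 for 21 members, in control 1 for 3 and in control 2 for 3.

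The highest control exceeded the lowest by a median of 15.9 times among members and 8.38 times among those other rows. Their counts differ, however: the median count was 13, 17 and 8 for members and 22, 30 and 9 for the other rows in controls 1 to 3. The other rows could also have passed the authors' filter through a mutant, and the part of the filter and of low counts in the wider spread was not tested. The control mean lay above the mutant limit for 56 members, and for 40 without control 3, 49 without control 1 and 52 without control 2. It stayed above with any 1 control left out for 28 members. Of the 27 members highest in control 3, 11 stayed above the limit without that library.

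**Figure D3:**
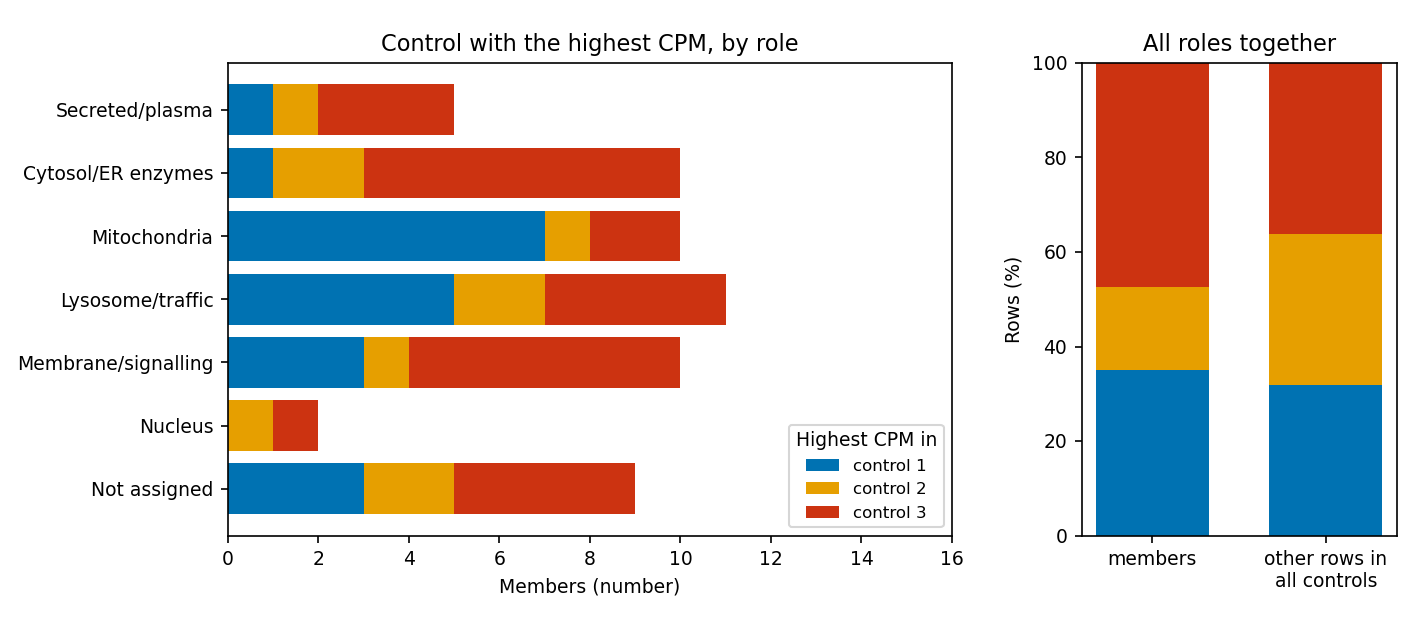
Left, number of members (horizontal axis) of each role whose highest CPM was in control 1, 2 or 3 (colours, roles on the vertical axis); right, the same as a percentage of all members and of the 4780 other rows with counts in every control. Mitochondrial members were highest in control 1 in 7 of 10 cases and the group labelled Cytosol/ER enzymes in control 3 in 7 of 10.

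Control 3 was also set against controls 1 and 2 in a fit of all rows. The members' values in it are a description, since each had to pass the authors' filter through a control and 15 of the 57 reached its limit only in control 3, where that limit was 9 counts. Within the controls, the quasi-likelihood test of edgeR, adjusted by Benjamini-Hochberg, called 0 of the 57 members and 0% of 7597 rows in either direction. The smallest adjusted p of a member was 0.671, with control 3 assumed to vary like controls 1 and 2. At an unadjusted p under 0.05 there were 8 members, all higher in control 3, and 450 rows (5.92%). DESeq2 gave an adjusted p to 13 of the 57 members. It called 1 of these, si:ch211-195b11.3, against 2.53% of 2295 rows higher and 0.305% lower in control 3. The older form of edgeR's fit called that member too, with 0.25% of rows higher and 0.105% lower. The newer form, which called none, was adopted with both results known. The median log2 difference, control 3 against controls 1 and 2 with TMM scaling, was 0.21 for members and -1.05 for all rows tested, which could also have passed the filter through a mutant. Nothing is read from the difference between these medians. Library and project code cannot be told apart in this comparison.

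Marker lists differed between the controls, several of them most in control 3. The muscle list was highest in control 1, at 35864, 1726 and 1425 CPM in controls 1 to 3. The red blood cell list was highest in control 2, at 11723 CPM, of which the row fth1a alone gave 11449.5 CPM. The liver plasma protein list, without its 1 member apoc2, summed to 11821, 14910 and 124703 CPM in controls 1 to 3. Its mutant sums were 2073, 2183 and 1895 CPM, so the groups did not overlap. This was not particular to that list. For ionocytes the lowest control sum was 1352 CPM and the highest mutant sum 843 CPM. Cilia separated the other way, with a highest control sum of 1093 CPM and a lowest mutant sum of 1647 CPM. Neurons did likewise (1005 and 1864 CPM), as did the distal tubule and collecting duct list given below. Liver enzymes without dmgdh had control sums of 1298, 1772 and 10366 CPM and mutant sums of 1010, 2010 and 866 CPM, which overlapped. Keratinocyte and periderm genes without cldne stood at 46468 CPM in control 3 and between 1484 and 4314 CPM in the 5 other libraries. The pan-pronephric list was lowest there, at 1675 CPM against 14651 and 13774 CPM in controls 1 and 2 and 3051 to 13505 CPM in the mutants. The summed distal tubule and collecting duct list was not lowest in control 3. It stood at 1494, 1496 and 1649 CPM in controls 1 to 3 and 1703 to 4006 CPM in the mutants. Single rows weighed heavily in these sums. In control 3, gata3 gave 649 CPM, pou3f3a 335 and trpm7 250. In contrast, clcnk had 10.6 CPM there against 63.4 and 202 in controls 1 and 2, and stc1l 10.6 against 54.3 and 150. In mutant 2, esrrga gave 725 CPM. The sum therefore does not show that distal tubule content was kept in control 3. Mitochondrial respiration genes without fh were also lowest in control 3 (2989 CPM). The part of these other tissues in the members' levels was not tested.

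**Figure D4:**
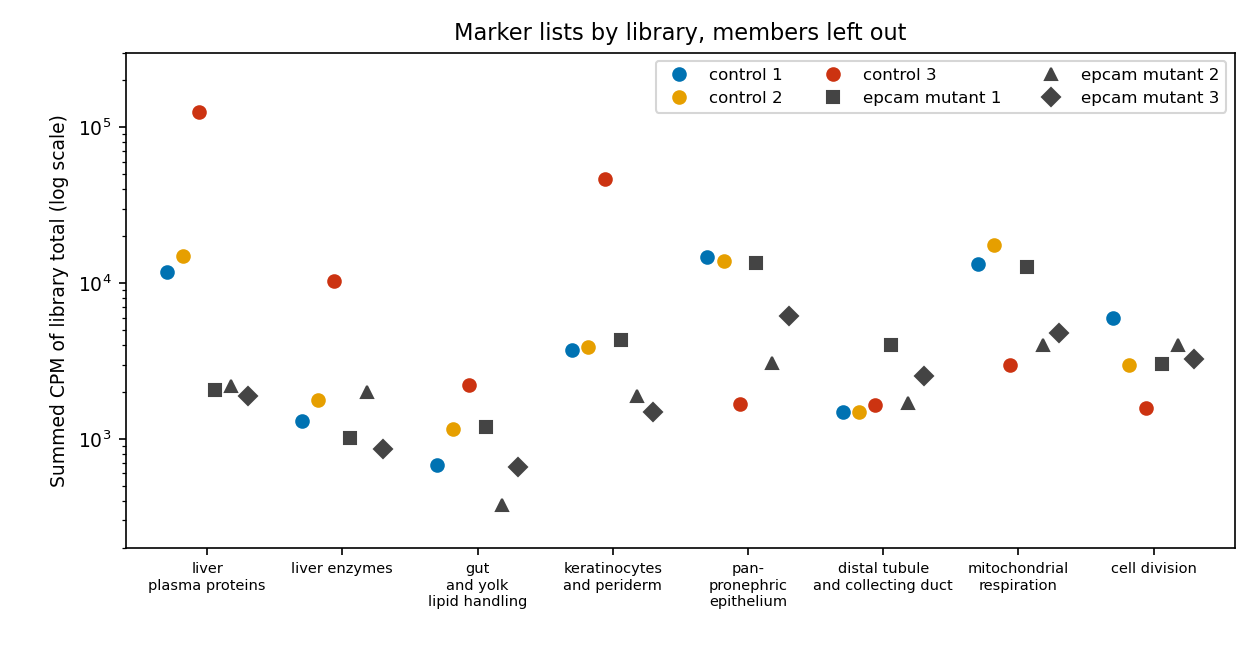
Summed CPM of library total (vertical axis, log scale) of 8 marker lists in each library, with members of the group left out of the sums. Control 3 stands highest for liver plasma proteins (124703 CPM) and keratinocytes (46468 CPM) and lowest for the pan-pronephric list (1675 CPM). For the distal tubule and collecting duct list it stands highest of the controls (1649 CPM, of which gata3 alone gave 649 CPM).

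On the 20 lists there were 6 members: apoc2, dmgdh, pla2g15 (gut and yolk lipid handling), cldne, rrm2 and fh. The share of all rows on a list was not counted, so nothing is read from this number. All controls lay above all mutants in CPM for 3.75% of all rows, and mutants above controls for 14.5% (6.08% and 11.2% with TMM scaling). With the members left out, since they meet this by choice, controls lay above for 16 of 42 liver plasma protein rows, 5 of 31 liver enzyme rows and 4 of 32 keratinocyte rows. The same held for 0 of 15 gut and yolk rows, 0 of 38 cell division rows and 2 of 50 respiration rows. In the other direction, mutants lay above all controls for 5 liver enzyme rows, 5 cell division rows, 2 respiration rows and 1 gut and yolk row, and for 0 liver plasma protein and 0 keratinocyte rows. With TMM scaling and members included, the gut and yolk list had 5 of 16. In the fit of all libraries the median log2 fold change of tested rows was -5.25 for liver plasma proteins and -3.06 for liver enzymes. It was -0.10 for all 3869 rows, -1.50 for keratinocytes, -0.58 for respiration and -0.25 for cell division. Lists without a member ran from -2.17 for ionocytes (5 rows tested) to 2.52 for neurons (9 rows tested), so low medians were not particular to lists with members. The expression filter kept 24 of 43 measured liver plasma protein rows and 9 of 32 liver enzyme rows, and 0 of them were called. Rows counted mainly in the controls could pass that filter, so these medians may follow from it in part. For gut and yolk no median is given, as 1 of its 5 tested rows is the member pla2g15.

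The other lists held no member. These were proximal tubule (9 rows), distal tubule and collecting duct (17), pan-pronephric epithelium (20), podocyte (9), cilia (19), ionocytes (12), endothelium (14), red blood cells (9), leukocytes (18) and muscle (39). The lists for neurons (26), retina and lens (6), notochord, cartilage and fibroblast (20) and vesicle traffic (58) held none either. Members are 0.569% of all rows, so at that share most lists of these sizes would hold none. Nothing is read from their absence. Members on the vesicle theme, such as ap2s1 and cog7, were grouped by role after their names were known.

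The rule used the contrast of genotypes, so the calls in that contrast are given for orientation alone. The authors' deposited table of p-values lists 10 members, 17.5% of the 57, against 3.83% of all rows: pla2g15, g6pca.2, tcn2, dmgdh, atic, vstm4a, pdk2a, apoc2, REPS2 and si:dkey-16l2.17. The FDR in the authors' deposited table ran from 0.00955 for pla2g15 to 0.0445 for si:dkey-16l2.17. DESeq2 without a filter on low counts called the same 10 (0.981% of 6623 rows were called lower in mutants and 5.16% higher), and gave no adjusted p for 43 members. The expression filter of edgeR kept 1 member, pla2g15. EdgeR's quasi-likelihood test called it in neither direction (0% of 3869 rows lower and 0% higher) while 521 rows had an unadjusted p under 0.05, pla2g15 among them, and DESeq2 on the same rows called it (0.913% of rows lower, 4.83% higher).

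Members lay on 23 of 25 chromosomes. Chromosome 16 carried 9 of them (15.8%), against 4.39% of all rows, and no other chromosome more than 4. The 9 were rabac1, krtcap2, s100a10b, apoc2, nudt17, paqr6, afp4, MALSU1 and CNDP1. Of these krtcap2 and s100a10b are neighbours, 9.17 kb apart with no other row between, and both were highest in control 3, at 128 and 542 CPM. The gap from paqr6 to afp4 was 132 kb with 1 row between, which is the second afp4 row, and from s100a10b to apoc2 585 kb with 14. The members' genomic span had a median of 15256 bases, against 27034 for rows with counts in all controls and 22584 for all rows. These shares are descriptions without a test.

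Rows that overlap a member were found for 7 of the 57, all on the opposite strand. The dmgdh row lies wholly within plgrkt, which had no control count and mutant counts of 21, 0 and 8. The mrps10 row lies wholly within dusp16 (0, 0 and 11 control counts), and ccdc23 overlaps FBXO2, with control counts of 32, 5 and 56 and mutant counts of 2, 1 and 9. The overlap of atic with fn1b was 3 bases and that of mthfd2 with mob1a 44 bases.

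Just inside the rule, the members with the fewest pooled control counts were cldne (20), s100u (22), slirp (23), rca2.1 (24) and metap1d (25). Just outside it, 37 rows had counts in every control and 1 count over the mutants. The highest of these were rell1 (1, 701 and 4 control counts), the creatine synthesis enzyme gamt (10, 8 and 162), apmap (452, 7 and 5), si:ch211-113a14.22 (1, 1 and 126) and jdp2b (45, 282 and 6). A further 69 rows had no mutant count but 0 in 1 control, which was control 3 for 35, control 1 for 20 and control 2 for 14. Among them were moxd1l (8, 0 and 229), the apolipoprotein apom (0, 11 and 111), GMEB2 (10, 299 and 0), the cholesterol-esterifying plasma enzyme lcat (0, 290 and 3) and igfbp6b (194, 2 and 0). The rows named here are those with the highest mean control level of each kind.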

How the data were processed

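RNA-seq counts of 3 control and 3 mutant libraries were used. The deposited file holds whole-number counts for 10022 rows, called filtered raw counts per the file name. Per the submitters' processing notes Trimmomatic 0.36.0, TopHat2 2.1.0, DESeq2 and GRCz10 were used; no source used here names the counting step. Per the labels' protocols, RNA was reverse transcribed with random and oligo(dT) primers, amplified, and sequenced without strand. Lowest values of the libraries (11, 0, 32 in controls 1 to 3 and 30, 31, 17 in mutants 1 to 3) were read as a constant and subtracted, an inference no label states. The authors' deposited table of p-values (FDR) gives no fold change.

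The rule for members, the 20 gene lists and the tests were chosen with earlier results of these data known. Roles were assigned after the members were listed. Members to describe by their counts were the 25 with the highest mean control CPM, those on lists or in the authors' table, the 5 with the highest minimum CPM, the 3 with the largest share in each control and the 5 with the fewest counts, with up to 5 rows of each kind just outside. Counts of the remaining members, and relatives and overlapping rows, were added after values were seen. The values of 1 member are not reported here, though it is included in all counts and sums. Of the 57 identifiers, 56 matched the name table.

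Fits used R 4.3.3, edgeR 4.0.16 (quasi-likelihood test, TMM) and DESeq2 1.42.0, with Benjamini-Hochberg adjustment at 0.05. The genotype fit used filterByExpr and group alone. The fit within controls used rows with a mean count of at least 5. Both fits were tested on simulated data in which 200 rows were changed 8-fold. The genotype fit recovered 91.5% of them with 9 false calls, and the fit within controls 65.5% with 1 false call. The simulated spread was a fixed setting and was not taken from these data, so recovery in the data may be lower. The changed rows were drawn only from rows above a set mean count, which many members do not reach. The recovery therefore does not cover those members. Of the 2 forms of edgeR's quasi-likelihood fit, the newer one was adopted with the results of both known, and the older is given as an alternative. Figures used Python 3.11.15 and matplotlib 3.10.9.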

Additional observations from a re-analysis of the deposited data

How the results depend on the processing

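The number of members was 30 with 3 or more counts in each control, 16 with 5 or more, and 110 with at most 1 count allowed in each mutant. Leaving out 1 library at a time gave 71 to 218 rows; fewer conditions on a row always admit more. Control 3 was highest for 25 to 28 of the 57 members under TMM scaling, upper-quartile scaling or totals without the 20 most abundant rows, and for 16 of the 30 members with 3 or more counts in each control. The control mean stayed above the mutant limit for 40 to 52 members with 1 control left out and for all 57 with TMM scaling, both tried after seeing the data. Between control 3 and controls 1 and 2, DESeq2 called 1 member and the older edgeR fit 1, and the other alternatives with every control kept called 0. The alternative on all 6 libraries also included the mutants, where all member counts are 0, so it is not a test within controls. Leaving out control 1 or control 2 leaves 1 library on each side. The controls then give no spread, and nothing is read from those fits. Leaving out control 3 leaves no second side.

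For all rows between genotypes, DESeq2 called 214 with the expression filter and 407 without it, and edgeR with the project code as a term called 9, all lower. The cause was not tested. Every other edgeR setting called 0, from 0 to 0 with 1 library left out and 0 on the values as deposited. With the replicate block edgeR called 0 rows and 395 had an unadjusted p under 0.05. Deviations of same-numbered libraries correlated at 0.081, -0.054 and 0.030 across rows, and those of differently numbered libraries at -0.121 to 0.103. Deviations from means of so few libraries cannot decide whether replicate numbers pair the libraries, and the main fit used no pairing. On values as deposited no mutant value is 0, so the rule for members gives none. Depth differed between libraries: 1 count is worth 1.34 to 5.32 CPM in the controls and 3.99 to 7.88 CPM in the mutants. The part of depth in the size of the group was not tested.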
